A study of Mus musculus with 9 samples.

Results

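The genes described here move glucose and lactate across the plasma membrane or decide what becomes of pyruvate inside the cell. They are 10 mouse genes in 4 families: the glucose transporters Slc2a1 and Slc2a2, the monocarboxylate transporters Slc16a1 and Slc16a3, the lactate dehydrogenase subunits Ldha and Ldhb, and the pyruvate dehydrogenase kinases Pdk1, Pdk2, Pdk3 and Pdk4. They were chosen by name, and every array probe whose RefSeq accession belongs to one of them was used. That gave 13 probes out of 55681 non-control probes on the array, for 10 genes out of 20972 that could be named. Ldha had 3 probes, Slc16a3 had 2 and each other gene had 1.

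Total liver RNA of male mice at 20 weeks of age was hybridised to one-colour Agilent arrays, 1 array per mouse, with 3 mice in each of 3 groups. STAM mice are C57BL/6J animals given a low dose of streptozotocin, a toxin of pancreatic beta cells, soon after birth and a high-fat diet after weaning, so that diabetes, steatohepatitis and liver tumours develop. STAM-NON mice received no further treatment, STAM-INS mice received the long-acting insulin analogue glargine under the skin, and Normal mice were lean animals that had received neither streptozotocin nor the high-fat diet. Thus STAM-NON and STAM-INS share the toxin and the diet, a comparison with Normal holds both at once, and whether the pieces of STAM liver held tumour is not given in the sources used here.

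As background, GLUT2, the product of Slc2a2, is the glucose transporter of hepatocytes and lets glucose pass in either direction, whereas GLUT1, from Slc2a1, is found in most other cell types. MCT1 (Slc16a1) and MCT4 (Slc16a3) carry lactate and other monocarboxylates together with a proton, and MCT4 is the form known from strongly glycolytic cells, activated macrophages among them. Lactate dehydrogenase is a tetramer of LDHA and LDHB subunits, LDHA being the main one in liver. The PDK enzymes phosphorylate the pyruvate dehydrogenase complex and so switch off the entry of pyruvate into the mitochondrial acetyl-CoA pool; Pdk4 is known to rise with fasting and with low insulin. Hypoxia-inducible factors bind DNA at the core ACGTG, and Slc2a1, Slc16a3, Ldha, Pdk1 and Pdk3 are among the genes known to respond to hypoxia.

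The 250 bases before the start site are given for the 3 genes that passed the test in at least one comparison with Normal, 5′ to 3′ on the strand of the gene, from RefSeq on GRCm38.p6. Capitals mark ACGTG on either strand. The windows lie at chr11:120948817-120949066 on the plus strand for Slc16a3, at chr11:95041372-95041621 on the minus strand for Pdk2 and at chr3:28697653-28697902 on the plus strand for Slc2a2.
Slc16a3: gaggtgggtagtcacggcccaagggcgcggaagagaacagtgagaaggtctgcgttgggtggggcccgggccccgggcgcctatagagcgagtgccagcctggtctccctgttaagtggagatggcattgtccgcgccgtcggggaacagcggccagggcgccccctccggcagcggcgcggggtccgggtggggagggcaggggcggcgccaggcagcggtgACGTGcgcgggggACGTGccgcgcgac
Pdk2: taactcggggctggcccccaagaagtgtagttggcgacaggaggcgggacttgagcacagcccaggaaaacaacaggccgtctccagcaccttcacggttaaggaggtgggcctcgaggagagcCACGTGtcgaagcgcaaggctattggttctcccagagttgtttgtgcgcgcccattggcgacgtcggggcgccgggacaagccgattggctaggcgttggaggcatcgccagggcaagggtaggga
Slc2a2: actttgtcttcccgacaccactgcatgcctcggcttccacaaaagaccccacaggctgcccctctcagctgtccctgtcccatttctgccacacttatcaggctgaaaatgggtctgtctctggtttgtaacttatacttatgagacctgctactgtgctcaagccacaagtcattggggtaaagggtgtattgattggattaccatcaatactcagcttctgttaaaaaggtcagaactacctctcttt

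The Slc16a3 window held ACGTG at 27 and at 14 bases before the start, both on the strand of the gene. The Pdk2 window held it on both strands inside 1 palindrome, CACGTG, an E-box, and the Slc2a2 window held none. Over the 13 windows that RefSeq lists for the 10 genes, 6 held ACGTG on either strand, 1 each for Slc2a1, Slc16a1, Slc16a3, Ldha, Pdk2 and Pdk3, while 16.6% of all 32851 windows of the same length did. CACGTG, which overlaps ACGTG, was in 3 of the 13 windows (Slc16a1, Ldha and Pdk2) and in 6.02% of all windows. The forkhead core TGTTTAC, in 3.17% of all windows, was in none of the 13. These are matches of letters in a reference window, not measured sites.

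Each level below is a centred log2 signal, the log2 of the processed spot intensity minus the 75th percentile of its array, so that 0 is that percentile and 1 unit is a doubling. Levels of different probes are not comparable with each other, and groups were compared with limma, the adjusted p being over 26289 tested probes with a threshold of 0.05. The 3 Normal arrays lay on another slide, scanned apart, than the 6 STAM arrays, so slide and group cannot be told apart in any comparison with Normal, whereas STAM-INS and STAM-NON shared 1 slide. On the 9 arrays 46.2% to 65.0% of spots were well above background and none was saturated. The share was 59.3% and 63.1% on STAM-NON replicates 1 and 3 and 65.0% on STAM-INS replicate 1. It was 46.2% to 51.1% on the other arrays. The lowest signals counted as well above background were -4.81, -5.41 and -4.96 on the former arrays and -3.68 to -4.09 on the others. Faint probes could thus count as detected at lower levels on the former. All 8 hepatocyte markers were well above background in every group, with a summed linear level (relative to the 75th percentile) of 4846 to 4998 in Normal, 3275 to 4441 in STAM-NON and 4327 to 4922 in STAM-INS. The 9 macrophage markers were detected in every group too, with sums of 107 to 159 in Normal, 209 to 367 in STAM-NON and 176 to 413 in STAM-INS. In bulk tissue fewer cells of a type and less RNA per cell cannot be told apart.

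In STAM-NON against Normal, Slc16a3 rose and Pdk2 fell, and the other 7 tested genes did not pass the test. That is 2 of 9 tested genes, where 16.1% of all tested probes were called, 6.30% upwards and 9.76% downwards. The 3 STAM-NON arrays lay wholly above or wholly below the 3 Normal arrays for 7 of the 10 genes, higher for Slc2a1, Slc16a3, Pdk3 and Pdk4 and lower for Slc2a2, Slc16a1 and Pdk2, where 41.2% of all tested probes did so, 13.2% higher and 28.1% lower. The median difference over the 9 tested genes was 0.14 on the log2 scale, against -0.13 over all tested probes. In STAM-INS against Normal 3 of the 9 passed, Slc16a3 upwards and Slc2a2 and Pdk2 downwards, where 13.9% of all probes were called (5.15% upwards and 8.72% downwards), with a median of 0.01 against -0.09 over all probes. In that comparison 6 of the 10 genes did not overlap, 3 in each direction, where 44.0% of all probes did so, 15.1% higher and 29.0% lower. The counts of 7 and 6 of the 10 genes take in Pdk3, higher but not tested, whereas the shares are over tested probes.

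The comparison that bears on insulin treatment itself is that of STAM-INS with STAM-NON. Here limma called 0 of the 9 genes, where 0.0913% of all tested probes were called. The lowest adjusted p was 0.533 and 1 gene, Ldhb, had an unadjusted p under 0.05, where 8.78% of all probes did. The arrays of the STAM groups did not overlap for Slc2a1 and Ldhb, both lower in STAM-INS, where 12.1% of all probes did not overlap and 4.91% did so downwards. The 95% intervals of the difference ran from -0.20 to 0.37 for the counted Ldha probe, the narrowest of the 9. They ran from -1.88 to 0.94 for Slc16a3 and from -1.83 to 1.18 for Pdk4. Differences of either sign lie within each of these intervals. The STAM-NON arrays and STAM-INS replicate 1 lay in the same row of that slide, and within it STAM-INS replicate 1 minus the STAM-NON mean was -1.09 for Slc16a3, -0.75 for Ldhb and -0.24 for Pdk4.

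**Figure D1:**
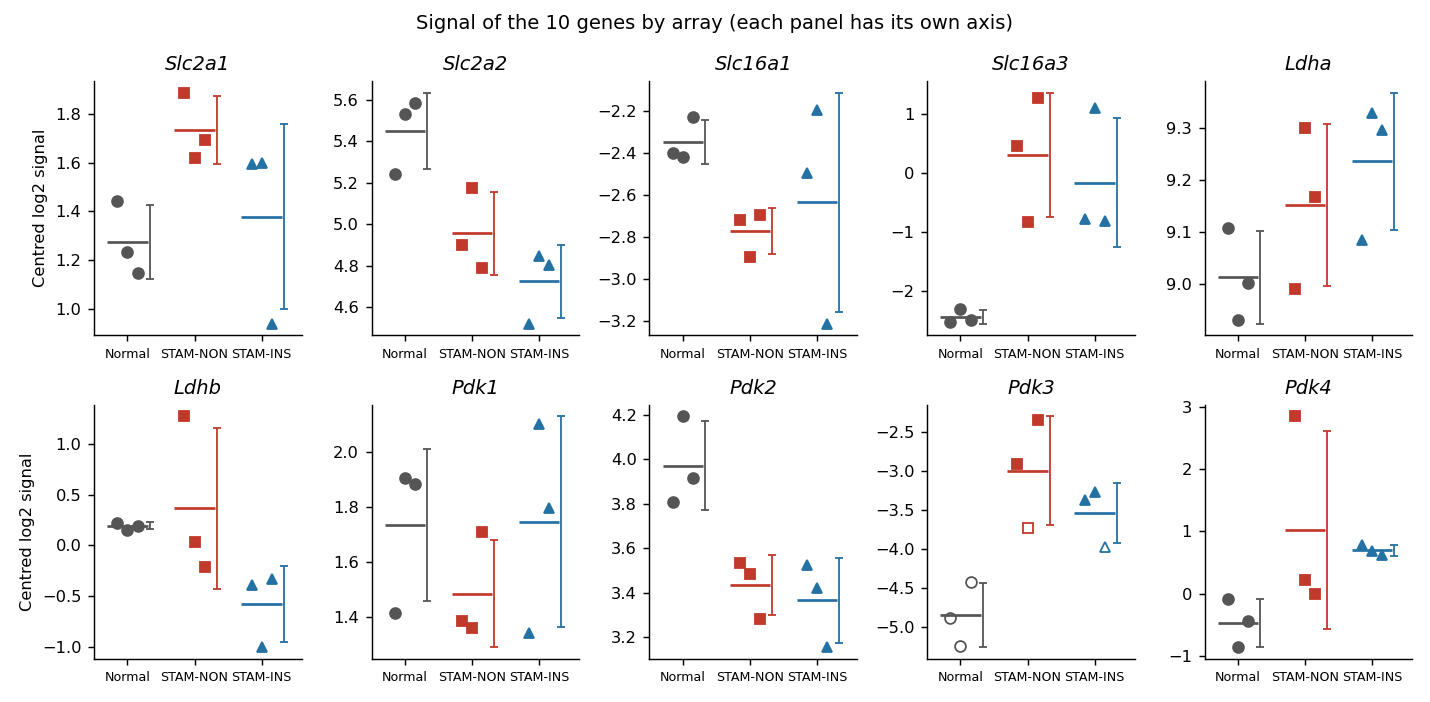
Centred log2 signal of the 10 genes on each of the 9 arrays, by group; each point is 1 array, open points are not well above background, horizontal lines are group means and the bars beside them are ± 1 SD (n = 3). Slc16a3 lies above -0.9 on all 6 STAM arrays and below -2.3 on all 3 Normal arrays, and the STAM-NON arrays spread most for Slc16a3, Ldhb and Pdk4.

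**Figure D2:**
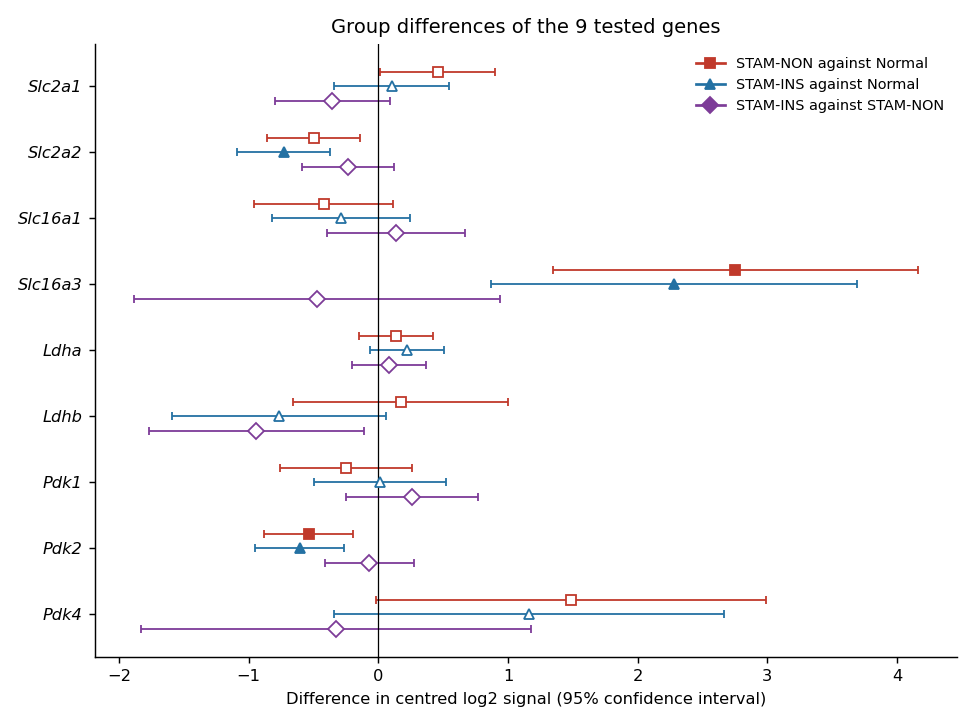
Differences in centred log2 signal of the 9 tested genes in the 3 group comparisons, with 95% confidence intervals from limma; filled symbols passed an adjusted p of 0.05 over all tested probes. Slc16a3 and Pdk2 are filled in both comparisons with Normal, Slc2a2 in STAM-INS against Normal, and no symbol of STAM-INS against STAM-NON is filled.

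Of the glucose transporters, the hepatocyte form Slc2a2 was lower in STAM liver. It measured 5.24, 5.53 and 5.58 in Normal, 4.90, 5.17 and 4.79 in STAM-NON and 4.52, 4.85 and 4.80 in STAM-INS. Every STAM array lay below every Normal array, and the STAM groups overlapped. STAM-INS was 1.66-fold lower than Normal (log2 difference -0.73 ± 0.16, SE, adjusted p = 0.0222, limma). STAM-NON was 1.41-fold lower with a difference of -0.50 ± 0.16 that missed the threshold (adjusted p = 0.0615) and was -0.20 with centring on the E1A probes, which read a spike-in RNA added to each sample. The STAM-NON difference passed with normexp background correction and without STAM-NON replicate 2 (lowest limma adjusted p 0.0240). STAM-INS and STAM-NON differed by -0.23 with an interval of -0.59 to 0.12 (adjusted p = 0.711), and by -0.12 without STAM-NON replicate 2 and -0.13 without STAM-INS replicate 1. In STAM-INS against Normal the adjusted p was 0.062 without STAM-INS replicate 1, 0.054 without STAM-INS replicate 2, 0.05002 without STAM-INS replicate 3 and 0.070 and 0.081 without Normal replicates 2 and 3. The call held under 9 of the 17 alternative settings. It was also lost with E1A centring, without the filter on dim probes and with slide row as a block. The summed hepatocyte markers were lower on all 3 STAM-NON arrays and on STAM-INS replicate 1 than on any Normal array. STAM-INS replicate 2 (4836) was just below the lowest Normal array (4846), and replicate 3 (4922) lay within the Normal range. The part of these markers in the Slc2a2 result was not tested.

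Slc2a1, the GLUT1 gene, was highest in STAM-NON. It measured 1.44, 1.23 and 1.15 in Normal, 1.89, 1.62 and 1.69 in STAM-NON and 1.60, 1.60 and 0.94 in STAM-INS. All STAM-NON arrays were higher than those of both other groups, while STAM-INS straddled Normal because of replicate 3. The difference of STAM-NON from Normal was 0.46 ± 0.19 (1.38-fold, interval 0.02 to 0.90), which did not pass after adjustment (adjusted p = 0.128), and that of STAM-INS from STAM-NON was -0.36 with an interval of -0.80 to 0.09 (adjusted p = 0.636), and -0.13 without STAM-INS replicate 3. Within one array the log2 ratio of Slc2a1 to Slc2a2 lay 0.62 to 1.17 above the Normal mean in STAM-NON, without overlap with Normal. This was a 1.94-fold shift with an exact two-sided permutation p of 0.1, the smallest that 3 arrays against 3 can give (0.214 after adjustment over the 15 ratio tests). The STAM-INS ratio lay 0.31 to 1.26 above the Normal mean and overlapped Normal (1.78-fold, exact permutation p = 0.2).

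Slc16a3, which encodes MCT4, had the widest change of the set. By its brighter probe it measured -2.53, -2.31 and -2.50 in Normal, 0.47, -0.83 and 1.28 in STAM-NON and -0.79, 1.1 and -0.81 in STAM-INS. All 6 STAM arrays were higher than all Normal arrays, and within each STAM group the arrays lay up to about 2 units apart. STAM-NON was 6.74-fold above Normal (log2 difference 2.75 ± 0.62, SE, interval 1.34 to 4.16, limma adjusted p = 0.0259) and STAM-INS 4.86-fold above it (2.28 ± 0.62, adjusted p = 0.0445). The other probe gave 2.61 (adjusted p = 0.0292) and 2.22 (adjusted p = 0.0485). STAM-INS was lower than STAM-NON by a difference of -0.47, which was within the spread (interval -1.88 to 0.94, adjusted p = 0.865), and without STAM-NON replicate 3 this difference was 0.02.

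The direction of Slc16a3 against Normal was the same under all 17 alternative settings tried in both comparisons, but the call was less steady. STAM-NON against Normal stayed past the threshold under 9 of the 17, and leaving out STAM-NON replicate 1 or 3 gave adjusted p-values of 0.073 and 0.067, and leaving out Normal replicate 1, 2 or 3 gave 0.073, 0.069 and 0.076. STAM-INS against Normal stayed past it under 4 of the 17, with adjusted p-values of 0.061, 0.111 and 0.061 without STAM-INS replicates 1, 2 and 3, of 0.058 without STAM-NON replicate 1, and of 0.110, 0.099 and 0.117 without Normal replicates 1, 2 and 3. The 3 STAM arrays with Slc16a3 above 0, STAM-NON replicates 1 and 3 and STAM-INS replicate 2, were also the 3 with the highest summed macrophage markers (363, 367 and 413), and the other STAM arrays, with Slc16a3 below 0, had 209, 176 and 273. The summed level of 6 cell division markers split these arrays in the same way, with 7.27, 7.70 and 13.5 on the first 3 and 2.15, 4.39 and 2.81 on the others, and 1.48 to 1.98 on Normal arrays. All 9 macrophage markers were above 0 in the difference of STAM-NON from Normal, with a median of 0.97, of which 2 passed the test, Clec4f (0.97) and Cd5l (1.33). Summed neutrophil markers were highest on STAM-NON replicate 3 (192) and STAM-INS replicate 2 (25.1). STAM-NON replicate 1 had 11.8, the other STAM arrays 5.65 to 14.7 and the Normal arrays 2.86 to 3.41. The part of macrophages, neutrophils and dividing cells in the Slc16a3 result was not tested.

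Slc16a1, the MCT1 gene, did not follow Slc16a3. It measured -2.40, -2.42 and -2.23 in Normal, -2.72, -2.90 and -2.69 in STAM-NON and -2.50, -2.20 and -3.21 in STAM-INS. STAM-NON lay below Normal on every array, and STAM-INS spread across both groups. None of its differences passed the test, with -0.42 in STAM-NON against Normal (interval -0.95 to 0.11, adjusted p = 0.225), -0.29 in STAM-INS against Normal and 0.14 between the STAM groups. The log2 ratio of Slc16a3 to Slc16a1 therefore lay 2.17 to 4.07 above the Normal mean in STAM-NON and 1.81 to 3.40 above it in STAM-INS. These were shifts of 9.03-fold and 5.93-fold without overlap (exact permutation p = 0.1 each, the smallest possible), and the STAM groups did not differ beyond their spread (p = 0.5, exact). The ratio took in both lactate transporters on the same array, so array-wide scaling cancels out of it, whereas the handling of background does not.

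**Figure D3:**
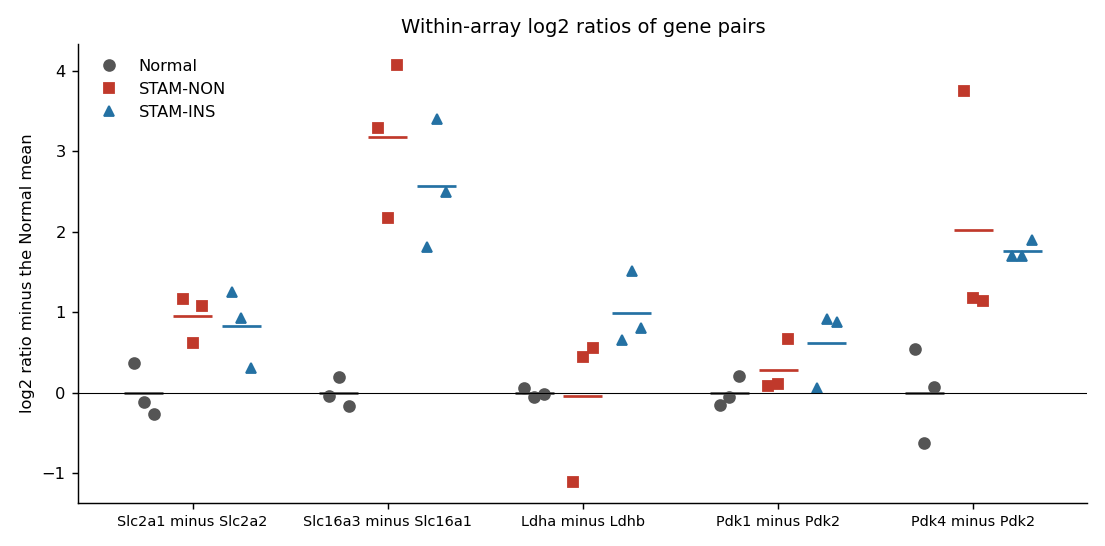
Log2 ratio of 5 gene pairs on each array minus the mean of that ratio in the Normal group; points are arrays and lines are group means (n = 3). The ratio of Slc16a3 to Slc16a1 lies above 1.8 on all 6 STAM arrays, and that of Ldha to Ldhb is above 0.6 on all 3 STAM-INS arrays but at -1.11 on STAM-NON replicate 1.

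Ldha, the main lactate dehydrogenase gene of liver, did not pass the test in any comparison. The probe with the highest mean measured 9.11, 8.93 and 9.0 in Normal, 8.99, 9.30 and 9.17 in STAM-NON and 9.08, 9.33 and 9.30 in STAM-INS. The groups overlapped in each comparison. The difference from Normal was 0.14 in STAM-NON (interval -0.15 to 0.42, adjusted p = 0.446) and 0.22 in STAM-INS (interval -0.06 to 0.51, adjusted p = 0.250). The other Ldha probes gave 0.32 each in STAM-NON against Normal (adjusted p = 0.229 and 0.192) and 0.54 and 0.52 in STAM-INS against Normal, without overlap and with adjusted p-values of 0.0761 and 0.0657, so the 3 probes had one direction and differed in size. The last of them passed in STAM-INS against Normal under 6 of the 17 alternative settings, the one before it under 3. In STAM-NON against Normal the first probe passed the test under quantile normalization (0.50, adjusted p = 0.0258) and under centring on the E1A probes (0.44, adjusted p = 0.0492). The second probe passed there under E1A centring (limma adjusted p = 0.0345), and the third under both settings (lowest limma adjusted p 0.0293).

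Ldhb was the gene in which the STAM groups stood farthest apart relative to their error. It measured 0.22, 0.15 and 0.20 in Normal, 1.27, 0.03 and -0.21 in STAM-NON and -0.39, -1.01 and -0.33 in STAM-INS. The Normal arrays lay within 0.1 of each other, STAM-INS was below both other groups on every array, and STAM-NON replicate 1 stood high. STAM-INS was below STAM-NON by a difference of -0.94 ± 0.36 (1.92-fold, interval -1.77 to -0.11, unadjusted p = 0.0304 with 0.533 after adjustment in limma), which is not a call, and without STAM-NON replicate 1 the difference was -0.49. Against Normal, STAM-INS differed by -0.77 (adjusted p = 0.180), which without STAM-NON replicate 1, an array outside that comparison that enters the shared estimate of spread, passed the test with an adjusted p of 0.040. STAM-NON differed from Normal by 0.17 (adjusted p = 0.755), and by -0.28 without its replicate 1. The log2 ratio of Ldha to Ldhb was 2.03-fold higher in STAM-INS than in STAM-NON and 1.99-fold higher than in Normal, without overlap in either case (exact permutation p = 0.1, the smallest possible, 0.214 adjusted). Without STAM-NON replicate 1 the log2 difference between the STAM groups, 1.02 with all arrays, was 0.49.

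Of the kinases, Pdk2, a widely expressed PDK, fell in both STAM groups. It measured 3.81, 4.19 and 3.92 in Normal, 3.54, 3.48 and 3.28 in STAM-NON and 3.52, 3.42 and 3.15 in STAM-INS. Every STAM array was below every Normal array, and the STAM groups overlapped almost fully. The difference was -0.54 ± 0.15 in STAM-NON (1.45-fold lower, limma adjusted p = 0.0460) and -0.61 ± 0.15 in STAM-INS (1.52-fold lower, adjusted p = 0.0346), and the STAM groups differed by -0.07 with an interval of -0.41 to 0.28. Both calls were close to the threshold: they held under 2 and 5 of the 17 alternative settings, each with the same direction. In STAM-NON against Normal only leaving out STAM-INS replicate 3 among the single arrays left the call in place (adjusted p up to 0.126, without Normal replicate 2), and in STAM-INS against Normal the adjusted p was 0.051 to 0.101 when any one STAM-INS or Normal array was left out. Centred on the spike-in probes, the difference in STAM-NON was -0.24.

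Pdk4, the kinase known to respond to insulin and fasting, was higher in STAM liver on every array but did not pass the test. It measured -0.09, -0.86 and -0.44 in Normal, 2.85, 0.23 and -0.01 in STAM-NON and 0.78, 0.69 and 0.62 in STAM-INS. STAM-NON replicate 1 alone was more than 2 units above every other array, while the STAM-INS arrays lay within 0.2 of each other. The difference was 1.49 ± 0.66 in STAM-NON (2.80-fold, interval -0.02 to 2.99, adjusted p = 0.143), and 0.57 without STAM-NON replicate 1. In STAM-INS it was 1.16 ± 0.66 (2.23-fold, adjusted p = 0.254), and without STAM-NON replicate 1, which enters the shared estimate of spread only, the adjusted p was 0.014. The STAM groups differed by -0.33 (interval -1.83 to 1.18), and by 0.59 without that array. STAM-NON replicate 1 also had the lowest summed hepatocyte markers (3275) and the highest summed biliary markers of all 9 arrays (9.21, against 3.49 to 5.41 on the other STAM arrays and 1.58 to 2.84 on Normal arrays). Its sum of 4 adipocyte markers was 0.696, against 0.0715 to 0.142 on the other 8 arrays, with Plin1 well above background on that array alone. The part of these markers in its Pdk4 and Ldhb levels was not tested. The log2 ratio of Pdk4 to Pdk2 lay 1.14 to 3.75 above the Normal mean in STAM-NON and 1.69 to 1.90 above it in STAM-INS (4.07-fold and 3.40-fold, no overlap with Normal, exact permutation p = 0.1 each). Without STAM-NON replicate 1 the log2 shift in STAM-NON, 2.02 with all arrays, was 1.16.

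Pdk1, the kinase best known from hypoxia, gave no difference. It measured 1.42, 1.90 and 1.88 in Normal, 1.39, 1.36 and 1.71 in STAM-NON and 1.34, 2.10 and 1.80 in STAM-INS, with all groups overlapping. The differences were -0.25 (interval -0.76 to 0.26) in STAM-NON and 0.01 (interval -0.49 to 0.52) in STAM-INS against Normal and 0.26 between the STAM groups (adjusted p = 0.441, 0.975 and 0.784). Pdk3, an X-linked kinase gene, was dim and was left out of the test. It measured -4.87, -5.24 and -4.42 in Normal, not well above background on any array, -2.91, -3.73 and -2.35 in STAM-NON and -3.37, -3.27 and -3.97 in STAM-INS, well above background on 2 of 3 arrays in each STAM group. A reference level was the lowest signal of any probe well above background on each Normal array, or the probe's own signal where higher. The Pdk3 mean was 1.87-fold above that level in STAM-NON and 1.29-fold above it in STAM-INS. Some brighter signals on Normal arrays did not count as well above background, so these folds are not lower bounds. Each STAM mean also takes in an array not well above background.

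The genes whose level followed each member most closely over the 9 arrays were taken from 13384 named and tested genes by Pearson's r. The arrays share groups, slide and scaling, so these values are a description. For Slc16a3 they were Pkm (0.994), the pyruvate kinase whose product feeds the lactate step, Sting1 (0.990), a sensor of innate immunity, and Tnfsfm13 (0.988). For Slc2a2 they were Olfr1252 (0.973), Dock8 (0.965) and Gm826 (0.964). For Ldhb they were Islr (0.980), Ano1 (0.940) and Npb (0.937), and for Pdk4 Vps37d (0.981), Usp20 (0.957) and Nupr1 (0.956). Among the members themselves, Slc16a3 and Pdk3 had r = 0.92 and Slc2a2 and Pdk2 r = 0.81.

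The surrounding pathway was described with a list of 43 genes, of which 34 were tested: other glucose transporters, monocarboxylate transporters and their chaperones, other lactate dehydrogenases, pyruvate entry with the pyruvate dehydrogenase complex, and regulators. In STAM-NON against Normal 2 were called higher and 3 lower (5.88% and 8.82% of the list, where 6.30% and 9.76% of all probes were called), with a median of -0.29 against -0.13 over all tested probes, and with centring on the E1A probes 2 were higher, 1 was lower and the median was 0.0097. In STAM-INS against Normal 2 were called higher and 8 lower (5.88% and 23.5%, where 5.15% and 8.72% of all probes were called), with a median of -0.30 against -0.09 over all probes. With E1A centring 2 were higher, 1 was lower and the median was -0.22. That centring also moved the calls and the median over all probes, as given at the end, so its counts are not comparable with the shares above. In STAM-NON against Normal the list median stayed below that of all probes under it. In STAM-INS against STAM-NON limma called none, where 0.0913% of all tested probes were called (lowest adjusted p 0.474). Of the 34, 5 had an unadjusted limma p under 0.05, where 8.78% of all probes did. The median was -0.01 against 0.03 over all probes. The counts called higher against Normal with the main settings include Slc5a1, which entered the test only through STAM-INS, where it is high.

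Of 7 other glucose transporter genes tested, Slc2a6 and Slc5a1 were called higher in both comparisons with Normal. Over all probes 6.30% were called higher in STAM-NON and 5.15% in STAM-INS. Slc2a6, a transporter of lysosomal membranes known from macrophages, measured -1.73, -2.30 and -2.01 in Normal, -1.40, -1.63 and -1.25 in STAM-NON and -1.21, -1.05 and -1.06 in STAM-INS. The groups did not overlap in any of the 3 comparisons, with differences of 0.58 (adjusted p = 0.0483), 0.91 (adjusted p = 0.0137) and, between the STAM groups, 0.32 (adjusted p = 0.623). The Slc2a6 call held under 3 of the 17 alternative settings in STAM-NON and under 14 in STAM-INS. Slc5a1, the sodium-coupled transporter SGLT1, did not stand well above background in the Normal group. It entered the test only because all 3 STAM-INS arrays, where it is high, were above background, so its calls are not given as support. Against the same reference level as for Pdk3, its mean in STAM-NON, detected on 2 of 3 arrays, was 1.15-fold higher. In STAM-INS it was 1.53-fold higher, and neither fold is a lower bound. The urate and fructose carrier Slc2a9 fell in STAM-INS against Normal (-0.97, adjusted p = 0.0391). None of the 4 monocarboxylate transporter and chaperone genes tested was called, and of 2 other lactate dehydrogenase genes Ldhal6b fell in STAM-NON (-0.64, adjusted p = 0.0441) and in STAM-INS (-0.95, adjusted p = 0.0142). Over all probes 9.76% and 8.72% were called lower in these comparisons.

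The 10 tested genes of pyruvate entry and the pyruvate dehydrogenase complex had a median of -0.42 in STAM-NON and -0.36 in STAM-INS against Normal, where all tested probes had -0.13 and -0.09. With E1A centring the list medians were -0.12 and -0.28, and none of the 10 was called. The median over all probes moved upwards with that centring too, as given at the end for STAM-NON. Of these Mpc2, a subunit of the mitochondrial pyruvate carrier, fell in both (-0.45, adjusted p = 0.0491, and -0.48, adjusted p = 0.0454), with -0.15 and -0.40 under E1A centring. Pdp2, the phosphatase that reverses the action of the PDKs, fell in STAM-INS (-0.98, adjusted p = 0.04997) and differed by -0.79 in STAM-NON (adjusted p = 0.0801). Of 11 regulators 1 fell in STAM-NON (9.09%, where 9.76% of all probes fell) and 4 in STAM-INS (36.4%, where 8.72% did so), and with E1A centring 1 fell in each. Fewer of all probes were also called lower with that centring, as given at the end. Mlxipl, which encodes the glucose-sensing factor ChREBP, measured 6.64, 6.64 and 6.81 in Normal, 5.26, 5.59 and 5.69 in STAM-NON and 6.36, 5.86 and 6.0 in STAM-INS. STAM-INS lay between the other groups without overlapping either: STAM-NON was -1.18 from Normal (adjusted p = 0.00831), STAM-INS -0.62 from Normal (adjusted p = 0.0425), and STAM-INS was 0.56 above STAM-NON, which did not pass (adjusted p = 0.474).

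Txnip, an arrestin that lowers glucose uptake and a known ChREBP target, did not follow that order. It measured 4.65, 3.68 and 3.99 in Normal, 3.70, 2.87 and 2.39 in STAM-NON and 2.14, 2.19 and 2.09 in STAM-INS, all STAM-INS arrays lying below those of both other groups. It fell in STAM-INS against Normal (-1.97, adjusted p = 0.0113), while STAM-NON differed by -1.12 (adjusted p = 0.0563) and the STAM groups by -0.84 (adjusted p = 0.546). Ppara, the nuclear receptor of fasting, and Foxo1 fell in STAM-INS against Normal (-0.86, adjusted p = 0.0229, and -0.64, adjusted p = 0.0326). Hif1a, the hypoxia-inducible factor subunit that is controlled mainly at the level of protein, differed by -0.02, -0.03 and -0.01 in the 3 comparisons, with a standard error of 0.11.

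The 15 calls on these pathway genes, 5 in STAM-NON and 10 in STAM-INS against Normal, kept their direction under all 17 alternative settings. The Slc5a1 calls in both comparisons are among them and are not given as support. The steadiest were Txnip in STAM-INS, past the threshold under 16 settings, and Mlxipl in STAM-NON, under 15. Mlxipl in STAM-INS held under 7. Mpc2 and Ldhal6b in STAM-NON held under 2 each. Leaving out 1 array ended 9, 11 and 13 of the 15 calls for Normal replicates 1, 2 and 3, 8, 11 and 8 for STAM-INS replicates 1, 2 and 3, and 6, 1 and 4 for STAM-NON replicates 1, 2 and 3.

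**Figure D4:**
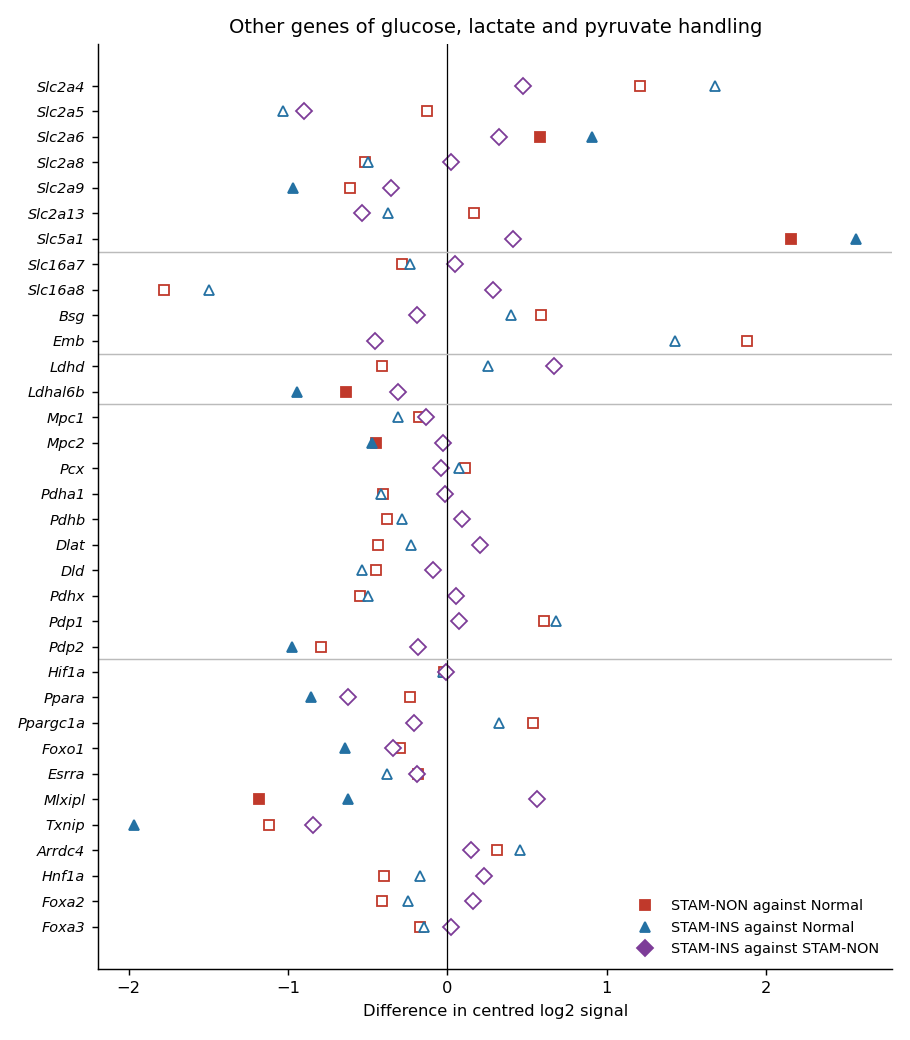
Differences in centred log2 signal of the 34 other pathway genes tested, in the 3 group comparisons; grey lines separate glucose transporters, monocarboxylate transporters and chaperones, other lactate dehydrogenases, pyruvate entry and the pyruvate dehydrogenase complex, and regulators, and filled symbols passed an adjusted p of 0.05. Txnip at -1.97 in STAM-INS against Normal is the lowest filled symbol; Slc5a1 and Emb were at background on all Normal arrays, so their plotted values against Normal are not exact differences.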

How the data were processed

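Spot intensities of 9 one-colour arrays, extracted with Agilent Feature Extraction 11.5.1.1 per the labels, were deposited by the authors as background-subtracted processed signal without scaling between arrays. The labels and the study's methods name different RNA extraction kits, and no array normalization or test is given in the sources used here. The array number limits precision.

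Each array's log2 processed signal was centred on its 75th percentile over non-control spots, outlier spots were left out and spots of a probe averaged. Probes were named through RefSeq accessions (GRCm38.p6 table, 27656 named). To be tested, a probe needed a share of 0.5 or more of its spots well above background on all 3 arrays of 1 group. limma 3.58.1 (R 4.3.3) was fitted to the 3 groups with 6 residual degrees of freedom and Benjamini-Hochberg adjustment, after testing on simulated data. Gene ratios used exact two-sided permutation tests. Of several probes, the tested probe with the highest mean was counted.

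All 10 members are named, then up to 8 other pathway genes past the threshold with the largest differences, Hif1a and Ppara, and the 3 genes most like each of 4 members. Mpc2 and Foxo1 lie outside that rule and were chosen after their values were seen, as were the motifs. Markers are named by largest difference or as passing the test. Members and lists were chosen with earlier results of these data known. The fixed alternatives were scaling, background (normexp, offset 50, on the median signal because no mean signal column was used), the dim-probe filter, slide row and replicate blocks, a 2-group fit and single arrays left out. Replicates are separate mice as far as the labels tell.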

Additional observations from a re-analysis of the deposited data

How the results depend on the processing

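Over 17 alternative settings the number of member genes past the threshold in STAM-INS against STAM-NON stayed at 0. In STAM-NON against Normal it was 2 and moved to 1 with the percentile taken over detected probes or with only the 2 groups fitted, and to 0 without the dim-probe filter, with slide row as a block or with a replicate block. In STAM-INS against Normal it was 3 and moved to 0 with E1A spike-in centring, without the dim-probe filter or with slide row as a block, to 1 with a replicate block and to 5 with only the 2 groups fitted. Other settings changed which genes passed. In STAM-NON against Normal, quantile normalization and E1A centring each lost Pdk2 and gained Ldha, and normexp gained Slc2a2. In STAM-INS against Normal, normexp lost Slc16a3 and gained Ldha. Quantile normalization there lost Slc16a3 and Pdk2 and gained Ldha, and the detected-probe percentile lost Pdk2. Leaving out single arrays gave 0 to 2 in STAM-NON against Normal, 0 to 4 in STAM-INS against Normal and 0 to 0 in STAM-INS against STAM-NON. Ldha by its brightest probe passed in STAM-NON against Normal under quantile normalization and E1A centring, and in STAM-INS against Normal under quantile normalization (0.48) and normexp (0.36). The other Ldha probes also passed in STAM-NON against Normal under E1A centring. The replicate numbers did not pair the arrays, with correlations of deviations of -0.29 to 0.15. With the replicate block the calls over all probes went from 4220 to 2016 in STAM-NON against Normal, from 24 to 6 in STAM-INS against STAM-NON and from 3647 to 1871 in STAM-INS against Normal.

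The median of all tested probes in STAM-NON against Normal was -0.13, and became 0.17 with E1A centring and 0.04 with the detected-probe percentile, which moved the calls from 1655 higher and 2565 lower to 2370 and 446 and to 2150 and 981. In STAM-INS against Normal the 1355 higher and 2292 lower became 974 and 895 and 1734 and 1239. The calls over all probes in STAM-NON against Normal also fell to 250 without the dim-probe filter, 2180 with 2 groups fitted and 15 with slide row as a block, where that comparison runs through 1 STAM-INS array because all STAM-NON arrays lay in one row and all Normal arrays in the other. In STAM-INS against Normal they fell to 571 without the filter, 1869 with E1A centring and 2157 with the row block, and in STAM-INS against STAM-NON to 7 without the filter, 8 with 2 groups and 13 with the row block. Without single arrays they were 874 to 6191, 1172 to 4493 and 10 to 57.

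Of the 612 member probe differences recomputed, 25 changed sign, none of them a call. With slide row as a block Ldhb was -0.11 and Pdk1 0.36 in STAM-NON against Normal, Slc2a1 was -0.0046 in STAM-INS against Normal, and between the STAM groups the Ldha probes were -0.0671, -0.0522 and -0.0283, Pdk1 -0.14 and Pdk2 0.0887. With E1A centring Pdk1 was 0.0510 in STAM-NON against Normal, and between the STAM groups Slc16a1 was -0.0860 and Ldha -0.14 and -0.0219. With quantile normalization Ldha was -0.0195 between the STAM groups and the ratio of Ldha to Ldhb in STAM-NON against Normal 0.31, which was 0.14 with normexp. Without single arrays, between the STAM groups, Slc16a3 ran from -1.11 to 0.0153 and, by its other probe, -1.04 to 0.15, Slc16a1 from -0.0832 to 0.42, Pdk2 from -0.15 to 0.0371, Pdk4 from -0.84 to 0.59, the Pdk4 to Pdk2 ratio from -0.70 to 0.60 and the Slc2a1 to Slc2a2 ratio from -0.33 to 0.14. In STAM-NON against Normal Ldhb ran from -0.28 to 0.46 and its ratio with Ldha from -0.33 to 0.50, and in STAM-INS against Normal Slc2a1 from -0.0067 to 0.32, Slc16a1 from -0.50 to 0.0027 and Pdk1 from -0.17 to 0.22. The cause of these changes was not tested. Genes near background, Pdk3 and Slc5a1 among them, are limited by signal over background on the Normal arrays.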
